A study of Mus musculus with 8 samples.

Results

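The genes described here encode the ligands and receptors of axon guidance: 20 semaphorins (Sema), 9 plexins (Plxn), 2 neuropilins (Nrp), 8 ephrins (Efna, Efnb), 14 Eph receptors (Epha, Ephb), 3 Slits, 4 Robo receptors, 4 netrins (Ntn), Dcc and 5 Unc5 genes. They were chosen by symbol alone from the RefSeq annotation of GRCm38.p6, and make up 70 of its 21900 protein-coding genes. Slitrk genes were left out, and Unc5cl, which encodes a death-domain protein and is not a netrin receptor, came in through its symbol. By role, 35 were counted as ligands and 35 as receptors, with Unc5cl placed among the receptors by its symbol. Their median length of 53.6 kb compares with 17.1 kb over all protein-coding genes.

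Chromatin immunoprecipitation with sequencing (ChIP-seq) of SMC1 had been done on wild-type cortical neurons grown from embryonic day 16 Swiss-Webster mice to day 13 in vitro. Resting cultures were compared with cultures given 50 µM NMDA for 10 min and then kept for 50 min without the drug. NMDA is an agonist of a calcium-permeable glutamate receptor. There were 2 ChIP and 2 input samples for each condition, and the culture protocol also mentions etoposide, which the treatment label of none of the 8 samples names. The authors deposited 1 list of reproducible peaks for each condition, 12359 at rest and 1684 after NMDA, and library depth is unknown from them. Peak lists of a single chromatin protein hold no expression levels, so the labelled cell type could not be checked against its markers.

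SMC1 is a core subunit of cohesin, a ring-shaped complex that folds chromatin into loops and holds sister chromatids together. Semaphorins act through plexins, with neuropilins as co-receptors for the secreted class, ephrins through Eph receptor tyrosine kinases, Slits through Robo receptors and netrins through Dcc and Unc5 receptors. In the cortex these systems steer growing axons by attraction and repulsion, and several of them also act at synapses and on dendritic spines in older neurons.

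The first question was how many guidance genes had a reproducible SMC1 site nearby. Most of them had. A peak lay within 10 kb of the gene body for 56 of 70 genes at rest (80.0%, exact Clopper-Pearson 95% interval 68.7 to 88.6%), where 38.2% of all protein-coding genes had one. In the NMDA list the count was 21 of 70 (30.0%, 19.6 to 42.1%), against 8.94% of all protein-coding genes. With the resting list reduced to its 1684 strongest peaks the resting count was 19 (7.47 at like length), and at an irreproducible discovery rate up to 0.01 the NMDA count was 7 (2.05 at like length). Both lists had a peak at 20 guidance genes (28.6%, 18.4 to 40.6%, with 8.02 genes at like length), against 7.27% of all protein-coding genes. Only Nrp1 had a peak after NMDA and none at rest, where 364 of 21900 protein-coding genes did. In 13 guidance genes neither list had a peak, where this held for 13165 of the 21900. The intervals cover counting error over genes, which do not stand in for replicates of a condition.

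Long genes collect more peaks, so each guidance gene was set beside the other protein-coding genes of its length class. At the rate of those classes 38.2 of the 70 genes would have had a resting peak (54.5%) and 9.10 an NMDA peak (13%). The observed counts of 56 and 21 were above both. Among the 35 guidance genes shorter than 50 kb, 25 had a resting peak (71.4%, 53.7 to 85.4%), where their length classes gave 36.3%. For the 17 genes of 50 to 200 kb the count was 14 (82.4%, 56.6 to 96.2%, against 65.4%), and for the 18 genes of 200 kb or more it was 17 (94.4%, 72.7 to 99.9%, against 79.7%). In both of these ranges the value at like length lay inside the interval. After NMDA the counts were 6 of 35 (17.1%, 6.56 to 33.6%, against 8.27% at like length), 6 of 17 (35.3%, 14.2 to 61.7%, against 15.9%) and 9 of 18 (50.0%, 26.0 to 74.0%, against 19.4%). The value at like length lay inside the interval in the shortest and the middle range and below it in the longest. All genes of the longest range fall in a single length class. There the guidance genes had a median of 448 kb, against 325 kb over all protein-coding genes of 200 kb or more. Length is therefore not fully matched in that range, also for peaks per gene. The resting peaks were also more numerous per gene: 125 in all where the length classes gave 68.0, with 36 genes holding at least 2 where the classes gave 17.3. No peak was counted for 2 guidance genes.

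Ligand genes carried a resting peak in 31 of 35 cases (88.6%, 73.3 to 96.8%), and receptor genes in 25 of 35 (71.4%, 53.7 to 85.4%). Ligand genes were the shorter, with a median of 29.0 kb against 85.6 kb, and their length classes gave 51.2%, below the interval for ligands, and 57.8%, inside the interval for receptors. In the NMDA list 10 ligand and 11 receptor genes had a peak, where their length classes gave 4.25 and 4.85. The intervals of ligands and receptors overlap, and their difference was not tested.

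**Figure D1:**
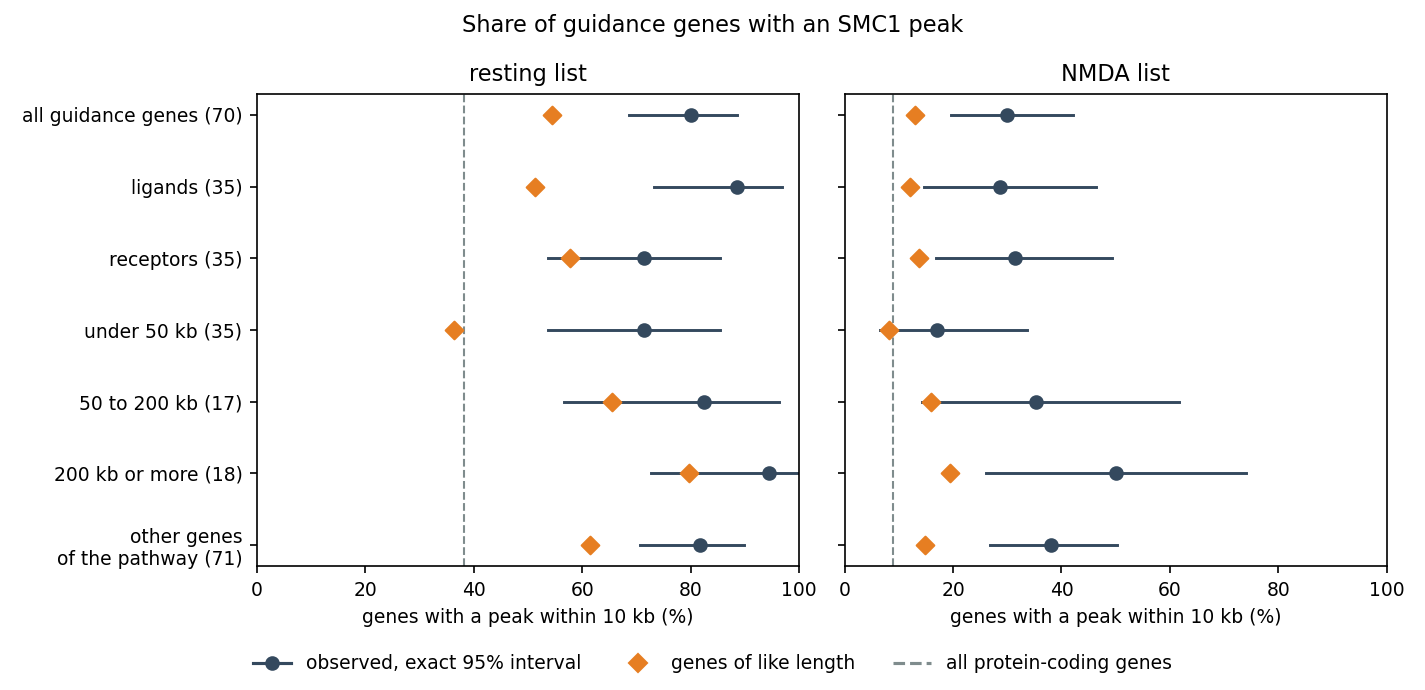
Share of genes with a resting or an NMDA SMC1 peak within 10 kb of the body, in percent, for the guidance genes as a whole, the ligands, the receptors, 3 length ranges and 71 other genes of the pathway, with exact 95% intervals and the share given by genes of like length. At rest all 70 guidance genes together stand at 80.0% where genes of like length give 54.5%, and after NMDA at 30.0% where they give 13%.

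How strong these sites were is given here as strength, the sum of the authors' −log10 p of both replicate columns. It rises with sequencing depth as well as enrichment, so strengths are ranked within a list and are not compared between the lists. The 125 resting peaks at guidance genes had a median strength of 29.6, close to the 30.2 of the whole resting list. The strongest peak of each gene had a median of 37.3 over the 56 guidance genes with a peak and 32.1 over the 8371 protein-coding genes with a peak. A highest value rises with the number of peaks of a gene. The 56 guidance genes held 125 peaks and the 8371 genes 12112, a peak counting once for every gene within 10 kb. These medians are therefore not matched for peak number. In 13 guidance genes the value was above 64.7, the 90th percentile of all genes with a peak, with the same limit.

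Among semaphorin genes 17 of 20 had a resting peak, where their length classes gave 10.5 genes, and 6 had an NMDA peak, where they gave 2.51. The 3 strongest resting sites of all guidance genes belonged to this family. Sema3f encodes a secreted repellent that binds neuropilin-2, and the site counted for it (chr9:107675823-107676569) had 88.3 in the first replicate column and 57.2 in the second, a strength of 145.5 that ranked 24th in the list. It lies 4.93 kb outside the body of Sema3f, inside the neighbouring gene Gnat1, a transducin subunit of rod photoreceptors. The overlapping NMDA peak had 21.9 and 13.5. A second Sema3f peak, inside the gene, had a strength of 59.8 and was in the resting list only.

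Sema5a and Sema5b encode transmembrane semaphorins with thrombospondin repeats. A broad resting peak over the start of Sema5a (chr15:32244257-32246782) had 87.7 and 53.2, a strength of 140.9, and the NMDA peak inside it had 9.13 and 20.3. Over the start of Sema5b (chr16:35540173-35542233) the resting columns held 66.7 and 43.8 and the NMDA columns 23.4 and 21.1. The resulting NMDA strength of 44.4 was the highest at any guidance gene.

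Sema4c, a transmembrane semaphorin that signals through plexin-B2, had its strongest resting site (61.0 and 32.4) beyond its far end, at the neighbouring gene Ankrd39. Its own start held resting peaks of 28.2 and 24.4 under a single NMDA peak of 27.9. Sema6d, a transmembrane ligand for class A plexins, had a strength of 73.9 at 10.7 kb inside its start with no NMDA peak there. Its shared site lay 520.7 kb from the 5′ end, with a strength of 44.3 at rest and 32.7 after NMDA. Sema3d, a secreted semaphorin, had 5 resting peaks, from 21.6 to 48.9, and the shared peak was the one at its start (46.4 at rest, 19.3 after NMDA).

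The other semaphorin genes with a peak appeared in the resting list only. Sema7a, which encodes a GPI-anchored ligand of plexin-C1 and integrins, reached 65.4 at 3.46 kb outside the body. The others had a strongest peak of 56.4 at Sema3b, 46.1 at Sema6a, 42.5 at Sema4a, 34.4 at Sema6b, 30.2 at Sema4b, 28.2 at Sema4f, 27.3 at Sema3g, 25.0 at Sema6c, 24.5 at Sema3c and 24.1 at Sema3a. No resting peak lay within 10 kb of Sema3e, Sema4d or Sema4g. Sema3e encodes the plexin-D1 ligand and is 231.4 kb long, the only guidance gene of 200 kb or more without one, and its nearest resting peak was 258 kb away.

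On the receptor side of this system 6 of 9 plexin genes had a resting peak and 1 an NMDA peak, where their length classes gave 4.61 and 1.11. Plxnc1, which encodes the Sema7a receptor, had resting values of 22.8 and 17.4 at its start and NMDA values of 9.42 and 11.7. Plxna4, a receptor for class 3 and class 6 semaphorins, had 4 resting peaks, of which the strongest (66.3) lay inside the gene, and none after NMDA. Strongest resting peaks were 58.0 at Plxna2, 24.4 at Plxnb1, 24.1 at Plxna1 and 18.3 at Plxna3, all resting-only. Both peaks counted for Plxnb1 lay at the neighbouring gene Ccdc51, 5.32 and 8.52 kb from Plxnb1. Plxnb2, Plxnb3 and Plxnd1 had no peak.

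The neuropilin genes differed in which list they entered. Nrp2, the co-receptor for Sema3f, had 5 resting peaks from 23.2 to 37.0, and the peak at its start was shared (14.7 and 11.6 at rest, 9.52 and 9.36 after NMDA). Nrp1, the co-receptor for Sema3a, had an NMDA peak of 9.83 and 9.01 (chr8:128363162-128363749) at 4.38 kb from its nearest start. That strength of 18.8 is near the 17.9 at which the NMDA list ends, and the nearest resting peak was 147 kb from the gene. This is a single peak near the limit of its list, so it says little about Nrp1.

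**Figure D2:**
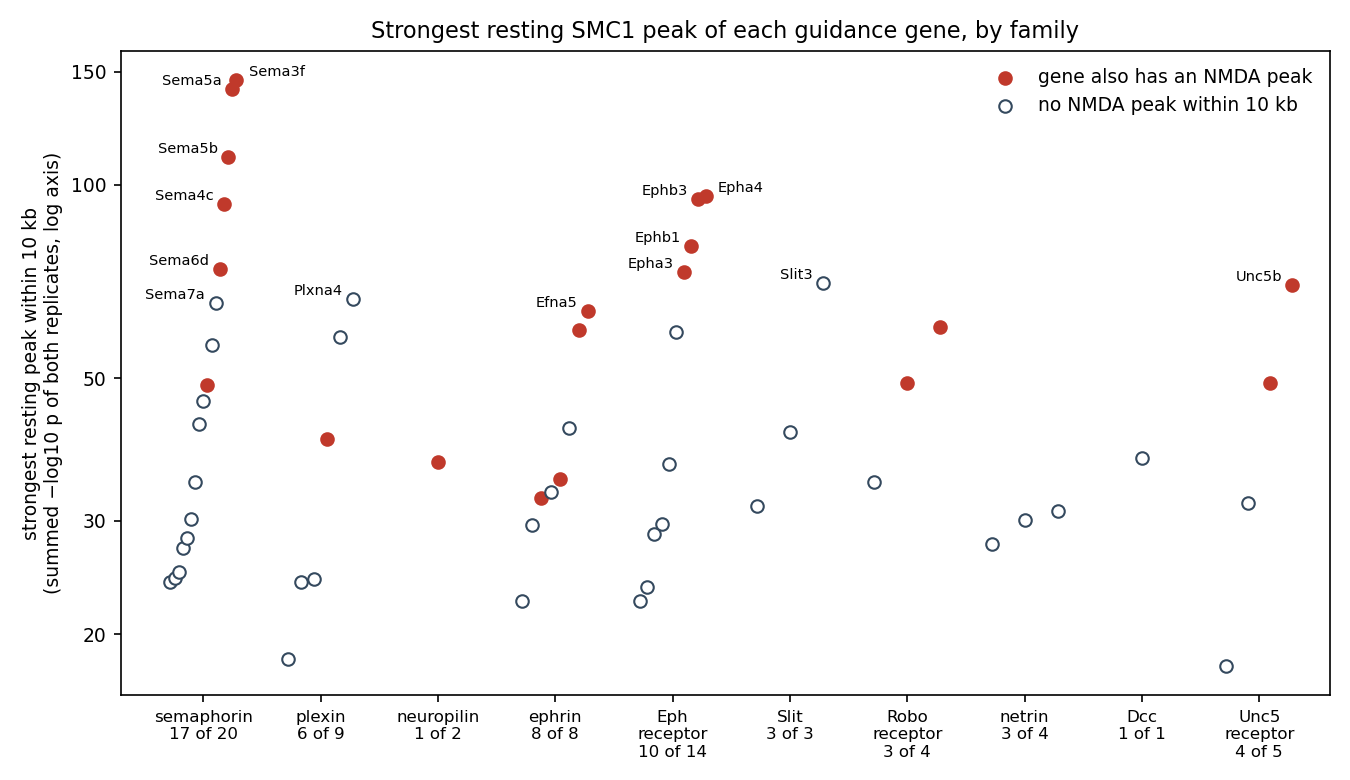
Strength of the strongest resting SMC1 peak of each guidance gene on a log axis, by family, with the number of genes that have a peak under each family name. Filled points are genes that also have an NMDA peak, and these include 10 of the 12 genes with the strongest resting peak, Slit3 and Plxna4 being the other two.

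Every ephrin gene had a resting peak within 10 kb, 8 of 8, where genes of like length gave 3.25. An NMDA peak was also found for 4, where the length classes gave 0.745. Efna5 encodes a GPI-anchored ephrin known for setting topographic maps, and its strongest peak lay 2.45 kb outside the gene on the start side (41.6 and 22.0 at rest, 10.4 and 17.0 after NMDA). Efnb3, a transmembrane ephrin of the midline, had 17.4 and 42.0 at a site inside the neighbouring gene Dnah2, 6.61 kb from its own body, and 11.1 and 12.3 there after NMDA. At Efna1 the single peak, just before the start, had 24.0 and 10.9 at rest and 9.82 and 8.69 after NMDA. Efnb2, which encodes a transmembrane ephrin for EphB receptors and EphA4, had 3 resting peaks side by side from its start into the gene (21.4, 32.0 and 32.6) under 2 NMDA peaks (23.4 and 29.3). Efnb1 (41.8), Efna2 (33.3), Efna3 (29.6) and Efna4 (22.5) had resting peaks only. The only peak counted for Efna4 lay at the neighbouring gene Adam15, 2.48 kb from Efna4. Both Efna2 peaks lay outside that gene, at 3.61 and 9.24 kb, the nearer and stronger of them closer to Fam174c.

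Of the Eph receptor genes 10 of 14 had a resting peak and 4 an NMDA peak, where their length classes gave 7.92 and 1.89. Epha4, a receptor for both ephrin classes that acts in axon repulsion and on dendritic spines, had 61.95 and 34.0 over its start (chr1:77514093-77517011), and 12.7 and 13.5 after NMDA. At the start of Ephb3 (chr16:21204013-21205774) the resting columns held 56.96 and 38.0 and the NMDA columns 26.9 and 10.0. Ephb1, a receptor tyrosine kinase for ephrin-B ligands, had 25.2 and 55.1 at its start and 18.6 and 12.9 after NMDA. Epha3 differed from these 3 in place: its shared site lay 6.94 kb inside the gene (40.9 and 32.2, then 18.4 and 7.04), while a resting peak at its start (27.9) was not shared.

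Ephb2, an EphB receptor that binds the NMDA receptor at synapses, had 5 resting peaks, the strongest (59.0) being 4.73 kb outside the gene, and none in the NMDA list. Further resting-only genes were Epha6 (36.8), Epha1 (29.6), Epha7 (28.6), Epha5 (23.7) and Ephb6 (22.6). The peak of 29.6 counted for Epha1 lay 8.22 kb outside it, at the start of the neighbouring gene Zyx. Epha2, Epha8, Epha10 and Ephb4 had no peak in either list.

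In the Slit system NMDA peaks were listed for receptor genes and not for ligand genes, a difference that was not tested. Slits are secreted repellents, and all 3 genes had resting peaks, 13 together where the length classes gave 4.76, yet none had an NMDA peak, where the classes gave 0.553 genes. Slit3 held 6 of them from 17.9 to 70.4, the strongest with 53.2 and 17.1, and 5 of the 6 lay inside the gene at 286.1 kb or more from its start. Slit1 had 4, up to 41.2, and Slit2 had 3, up to 31.7. With fewer than 1 gene given by length, the count of 0 does not set the Slits apart.

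The receptor genes Robo1 and Robo2 had peaks in both lists. Robo1 had 6 resting peaks spread over the gene, and the shared peak lay at an annotated start 635.8 kb from the 5′ end (23.9 and 11.2 at rest, 8.50 and 13.6 after NMDA) while its strongest, 60.2, was resting-only. In Robo2 the shared site also lay at an internal start, 1034 kb from the 5′ end (25.2 and 24.0 at rest, 12.6 and 12.3 after NMDA). Robo3, which acts in commissural axons, had a resting-only peak of 34.5, and Robo4, an endothelial member, had none.

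Netrin genes had resting peaks in 3 of 4 cases and no NMDA peak, where the length classes gave 1.88 and 0.447 genes. Ntn1, the chemoattractant of commissural axons, had 18.1 and 11.96 at an end of the gene, Ntn4 had 27.6, and Ntn3 had none. Both peaks counted for Ntn5 lay nearer to other genes. The stronger (31.0) was 9.52 kb from Ntn5, at the start of Dbp, and the other (18.8) was 0.988 kb away, at Sec1. Dcc, the receptor for attraction, had resting peaks of 37.5 and 28.5 near an end of its 1098 kb and none after NMDA.

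Unc5 receptors mediate repulsion by netrins. Of the 5 genes with an Unc5 symbol, Unc5cl included, 4 had a resting peak and 2 an NMDA peak, where their length classes gave 3.25 and 0.778. Unc5b had the most resting peaks of any guidance gene, 7 from 22.2 to 69.8. Its shared peak was the one at the start (22.6 and 19.4 at rest, 9.59 and 12.03 after NMDA), and 2 of its other peaks were stronger. Unc5c had its strongest resting peak (49.1) 365.6 kb inside the gene, and its shared peak at the start (11.8 and 11.1 at rest, 10.9 and 18.7 after NMDA). Unc5cl had 32.0 and Unc5d 17.8 at rest only. Unc5a, 139 kb from the nearest resting peak, had none.

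The replicate columns carry no replicate numbers. Over the 20 genes with a peak in both lists, at the strongest peak of each list, the first column was the higher in 15 at rest and in 10 after NMDA. Because a −log10 p depends on depth, the values of the lists are set side by side here and give no measure of lost or gained binding.

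**Figure D3:**
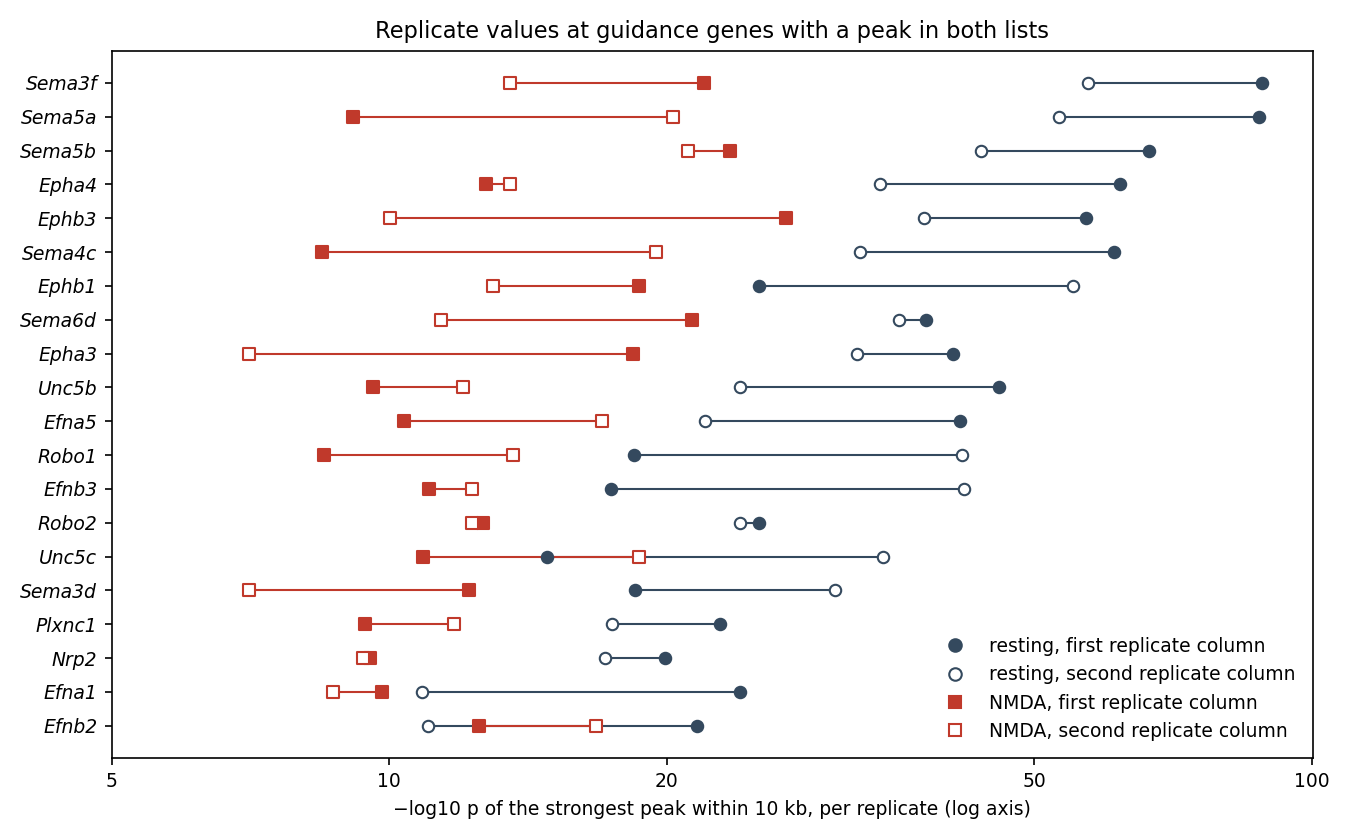
The authors' −log10 p in each replicate column for the strongest resting and the strongest NMDA peak of the 20 guidance genes with both, which need not be the same site, on a log axis. Resting points run from 10.9 to 88.3 and NMDA points from 7.04 to 26.9.

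The second question was which resting sites of the guidance genes were found again after NMDA. Of the 125 resting peaks, 24 overlapped an NMDA peak (19.2%, 12.7 to 27.2%), where 10.7% of the whole resting list and 12.6% of the resting peaks within 10 kb of a protein-coding gene did. Stronger peaks overlap more often. Resting peaks of like strength within 10 kb of other protein-coding genes gave 13.7%, or 15.0% when also matched for lying at a start. Both values are inside the interval, so this share does not set the guidance genes apart. The interval takes peaks of the same gene as independent, and the difference was not tested. In the other direction 22 of the 23 NMDA peaks at guidance genes overlapped a resting peak (95.7%, 78.1 to 99.9%), the exception being that of Nrp1. Of the whole NMDA list 75.8% did, and of its peaks within 10 kb of a protein-coding gene 74.3%. These shares were not matched for strength.

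Median strength was 45.3 in the shared resting peaks and 27.9 in the others. Counted by gene, an NMDA peak was found for 20 of the 56 guidance genes with a resting peak (35.7%), where it was found for 19% of all protein-coding genes having a peak at rest. These gene shares are not matched for length, peak number or peak strength. The strongest resting peak had a median of 66.7 in the genes with an NMDA peak and 30.6 in those without. Of the 12 guidance genes with the strongest resting peak 10 had an NMDA peak, and of the other 44 genes 10 had. Across the 20 genes with both, the strongest resting and NMDA strengths had a Spearman correlation of 0.69, and all points share the same libraries. The strongest peak of a gene need not be the same site in both lists, as at Robo1 and Unc5c.

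Start sites were then examined, a choice made after seeing the data, because the promoter table gives a start for 60 of the 70 guidance genes. Entries were missing for Dcc, Efnb3, Ntn1, Plxna1, Plxna4, Sema3b, Sema3f, Sema6a, Slit1 and Unc5d, whose peaks are left out here. A resting peak lay within 1 kb of a start in 30 of 60 genes (50.0%), where 15.0% of all genes with an entry and 23.3% at like length had one. After NMDA 15 of 60 had one (25.0%), where 5.55% of all genes and 8.35% at like length did. All 15 were among the 30 (50.0%, 31.3 to 68.7%), where 24.6% of all genes with a resting peak at a start also had an NMDA peak there. The 50.0% and the 24.6% are not matched for peak strength.

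These 15 genes were Efna1, Efnb2, Epha4, Ephb1, Ephb3, Nrp2, Plxnc1, Robo1, Robo2, Sema3d, Sema4c, Sema5a, Sema5b, Unc5b and Unc5c. They hold 6 ligand and 9 receptor genes, with no Slit or netrin among them. By peaks, 17 of the 34 resting peaks at a start were shared (50.0%, 32.4 to 67.6%), and 5 of the 68 elsewhere (7.35%, 2.43 to 16.3%). These counts take the start of the guidance gene itself. With the start of any gene, over all 125 resting peaks, they became 18 of 39 (46.2%, 30.1 to 62.8%) and 6 of 86 (6.98%, 2.60 to 14.6%). The whole resting list gave 24.4% and 7.07%. The 39 peaks had a median strength of 32.6, against 26.55 for start peaks of the whole list, so 46.2% and 24.4% are not matched for strength. At the guidance genes' own starts median strength was 32.7, and elsewhere 29.1. The 50.0% and 7.35% are therefore not matched for strength either, and their difference was not tested.

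**Figure D4:**
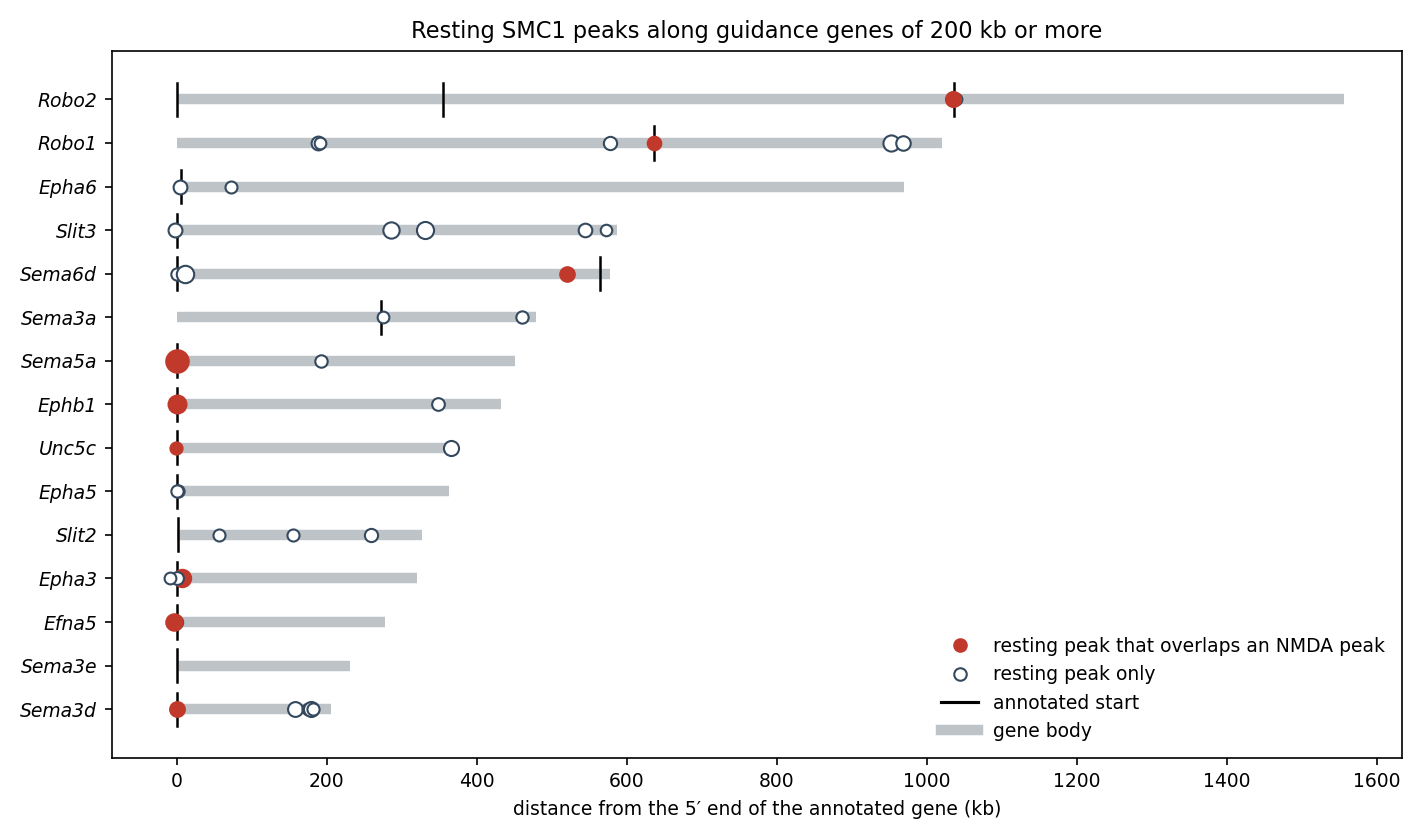
Position of each resting SMC1 peak along the guidance genes of 200 kb or more with an annotated start, as distance in kb from the 5′ end of the gene, with larger points for stronger peaks, filled points for peaks that overlap an NMDA peak and black ticks for annotated starts. Of these 15 genes Robo1 and Robo2 have their shared peak at an internal start, and Sema6d has it 43.0 kb before a start inside the gene.

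The bases just before the start were read for genes with a shared peak over them, to show what these sites look like. From RefSeq, on GRCm38.p6, the 250 bases before the start are printed 5′ to 3′ on the gene's strand for 5 genes. They belong to the ephrin, semaphorin and netrin systems. Both lists overlapped their windows, which lie outside the annotated gene body. Sema3e, the longest guidance gene without a resting peak and with none after NMDA, is given beside them. Capitals mark CG dinucleotides. The windows are chr8:8661243-8661492 on the minus strand for Efnb2, chr9:102354694-102354943 on the minus strand for Ephb1, chr1:62703067-62703316 on the plus strand for Nrp2, chr10:60831582-60831831 on the minus strand for Unc5b, chr3:141465314-141465563 on the plus strand for Unc5c and chr5:14025026-14025275 on the plus strand for Sema3e.
Efnb2: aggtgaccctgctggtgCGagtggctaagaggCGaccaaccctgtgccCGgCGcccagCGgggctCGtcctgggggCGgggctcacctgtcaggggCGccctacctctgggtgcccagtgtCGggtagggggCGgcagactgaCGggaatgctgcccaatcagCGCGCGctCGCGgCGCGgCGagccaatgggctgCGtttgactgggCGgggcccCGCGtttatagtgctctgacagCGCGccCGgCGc
Ephb1: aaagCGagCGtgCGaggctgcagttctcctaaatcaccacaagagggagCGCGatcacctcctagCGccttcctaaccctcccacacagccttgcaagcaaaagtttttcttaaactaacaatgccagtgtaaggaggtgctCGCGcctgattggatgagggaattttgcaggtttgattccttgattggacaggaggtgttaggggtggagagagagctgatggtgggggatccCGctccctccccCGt
Nrp2: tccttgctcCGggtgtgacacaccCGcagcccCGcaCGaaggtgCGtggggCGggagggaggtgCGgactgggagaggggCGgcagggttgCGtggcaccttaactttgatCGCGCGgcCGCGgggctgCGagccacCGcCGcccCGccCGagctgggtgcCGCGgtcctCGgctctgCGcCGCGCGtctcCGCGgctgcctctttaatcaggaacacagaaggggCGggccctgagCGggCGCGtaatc
Unc5b: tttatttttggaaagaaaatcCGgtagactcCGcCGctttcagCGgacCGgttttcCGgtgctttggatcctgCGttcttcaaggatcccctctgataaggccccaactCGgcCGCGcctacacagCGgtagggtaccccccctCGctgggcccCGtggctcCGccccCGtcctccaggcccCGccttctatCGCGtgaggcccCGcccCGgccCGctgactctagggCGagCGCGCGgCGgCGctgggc
Unc5c: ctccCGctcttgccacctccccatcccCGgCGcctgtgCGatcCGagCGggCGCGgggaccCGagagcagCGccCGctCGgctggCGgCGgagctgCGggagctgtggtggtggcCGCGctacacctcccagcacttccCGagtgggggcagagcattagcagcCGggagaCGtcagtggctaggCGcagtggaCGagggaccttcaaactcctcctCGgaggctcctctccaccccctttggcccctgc
Sema3e: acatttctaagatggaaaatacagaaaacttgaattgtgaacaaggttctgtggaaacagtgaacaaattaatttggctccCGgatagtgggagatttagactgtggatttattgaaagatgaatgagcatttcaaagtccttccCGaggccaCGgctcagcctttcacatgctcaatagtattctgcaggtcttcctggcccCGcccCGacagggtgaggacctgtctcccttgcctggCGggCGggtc
Counted in these windows, CG dinucleotides number 27 in Efnb2, 10 in Ephb1, 32 in Nrp2, 27 in Unc5b, 23 in Unc5c and 7 in Sema3e. The median over the windows of all genes is 10, the number in Ephb1. Other guidance windows under both lists reach into the gene body and were not printed. They held 16 in Ephb3, 11 in Robo1, 23 in Sema4c and 19 in Sema5b. Guidance windows overlapped by neither list had a median of 13 and ran from 0 in Sema6c to 46 in Epha8, so Sema3e does not stand for them.

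Over all 76 windows of the 60 guidance genes, 19 were overlapped by a resting peak (25.0%), against 11.6% of 21263 windows of all genes, and 10 by an NMDA peak (13.2%, against 4.67%). The median number of CG dinucleotides was 23 in the 9 windows overlapped by both lists and 13 in the 56 overlapped by neither. All genes showed the same order, 22 and 7, so the contrast is shared by promoters in general. Median GC content was 69.6% and 63.6% in these guidance windows.

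CTCF is the insulator protein that often halts cohesin. The 12-base core of its motif was searched on both strands. It was found in 2 of 76 guidance windows (2.63%, 0.320 to 9.18%), those of Epha1 and Plxnd1, neither overlapped by a peak, and in 1.98% of all windows. None of the 19 windows under a resting peak held it, which allows a share of up to 17.6%, and 4.62% of all windows under a resting peak did. Peaks extend past these windows, whose letters say nothing about the rest of a peak.

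The count depends on the window: 46 guidance genes had a resting peak in the body alone, 50 within 2 kb, 56 within 10 kb and 66 within 50 kb. Just inside the 10 kb limit were Plxnb1, with its nearest resting peak at 5.32 kb, and Epha1 at 7.18 kb. Just outside were Plxnd1 at 12.4 kb, Plxnb2 at 13.9 kb, Ephb4 at 15.8 kb and Robo4 at 16.6 kb. The 14 genes without a resting peak had a median length of 27.8 kb, and the 56 with one 110 kb. For 13 of the 125 resting peaks and 3 of the 23 NMDA peaks another protein-coding gene was nearer, among them those counted for Sema3f, Sema4c and Efnb3. With each peak given to its nearest protein-coding gene only, 53 guidance genes had a resting peak (34.5 at like length) and 19 an NMDA peak (8.10).

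Other genes of guidance signalling gave a comparison outside the ligand and receptor families. A list of 71 co-receptors, further cues and intracellular effectors had a resting peak in 58 genes (81.7%, where genes of like length gave 61.5%) and an NMDA peak in 27 (38.0%, where they gave 14.9%). Cues and co-receptors had resting peaks in 20 of 21 cases (12.7 at like length) and effectors in 38 of 50 (31.0). NMDA peaks were found for 10 (3.07 at like length) and 17 (7.50). Cues and co-receptors alone, at 95.2% and 47.6%, stood above the 80.0% and 30.0% of the ligand and receptor genes, a difference that was not tested. Over all 71 genes the 81.7% and 38.0% were closer to them. Neither pooled count therefore set the ligand and receptor genes apart from the rest of the pathway.

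The strongest resting peaks of that list were at Vav2 (98.8), which acts in Eph signalling, Nck1 (92.0), an adaptor of guidance receptors, and Enah (88.0), an actin regulator. Srgap1 (87.6), a GTPase-activating protein bound by Robo receptors, Dpysl3 (87.5), Chl1 (74.4), Ptch1 (66.2), Rgma (60.7), Trim9 (59.9) and Neo1 (59.4) followed, and all of these 10 but Dpysl3 and Trim9 had an NMDA peak. The NMDA peak at Chl1 had a strength of 1083, where the median over that list is 23.0, and whether it holds SMC1 was not tested. Further NMDA peaks lay at Rgmb, Dscaml1, Flrt3, Boc, Cdon, Ntng2, Dpysl2, Farp1, Chn2, Trio, Dock4, Ablim3, Trim67, Rasa1, Tiam1, Fyn, Cfl1, Gsk3b and Ptk2. Only Ptk2, focal adhesion kinase, had no resting peak among these.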

How the data were processed

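SMC1 ChIP-seq was deposited as 1 peak list for each condition, resting and NMDA, each made from 2 replicates. Tools named per the submitters' processing notes are BWA, FastQC, MACS2, SAMtools and Trimmomatic, and builds mm10 and GRCm38.p6. Their settings were not given in the sources used here. Each line of the authors' deposited lists carries the −log10 p of the peak in both replicates, their sum, used here as strength, the −log10 of the irreproducible discovery rate (IDR) and a scaled IDR score. The IDR limit of both lists was 0.05, so a peak seen in 1 replicate is not in them. Input samples were not used here, and depth is unknown.

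Peaks were joined to RefSeq gene bodies of GRCm38.p6 with a window of 10 kb. The share at like length is that of the other protein-coding genes in the same of 20 length classes with equal numbers of genes. Peaks of both lists were called shared at an overlap of at least 1 bp. A peak at a start has any part within 1 kb of one. Intervals are exact 95% Clopper-Pearson intervals and cover counting error only. No test was made, since genes and peaks are not replicates and each condition has 1 list. The rule of naming gave values for genes in the NMDA list, the 12 strongest, the 6 with the most resting peaks and those near the window limit. Every other guidance gene was named. Members and lists were chosen with earlier results of these data known, and the printed windows were chosen after the values were seen.

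The joins were tested on simulated data. Alternatives covered the window, IDR limit, list size, nearest-gene assignment, length classes, overlap and the reading of the symbols. Python 3.11.15, pandas 2.3.3, NumPy 2.4.6 and SciPy 1.17.1 were used.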

Additional observations from a re-analysis of the deposited data

How the results depend on the processing

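Of 78 values recomputed under other settings, 68 kept their direction or stayed within the spread allowed for them. With the resting list reduced to its strongest 1684 peaks, 19 guidance genes had a resting peak (7.47 at like length) and 13 a peak in both lists. At an IDR up to 0.01 only 7 had an NMDA peak (2.05 at like length), and 7 a peak in both lists. At 50 kb the like-length number for NMDA was 14.2. Within 2 kb of a gene end lay 51 of the 125 resting peaks at guidance genes, against 33 at 1 kb (26.4%, 18.9 to 35.0%). Of the 9210 resting peaks within 10 kb of any protein-coding gene, 3758 lay within 2 kb of a gene end. At 1 kb their share was 31.6%, inside that interval. Median resting strength was 15.9 in the first replicate column alone and 14.0 in the second. The excess over genes of like length stayed positive under every setting, from 11.5 to 18.5 genes at rest (17.8 as reported) and from 4.95 to 12.8 after NMDA (11.9 as reported), so its size moved by over 1.5 times on the reduced resting list (11.5) and at an IDR up to 0.01 after NMDA (4.95).

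No paired analysis was possible because the replicate columns carry no replicate numbers and no result comes from a test. Leaving out a replicate was not run, since a listed peak needs both. Depth is unknown, so the shorter NMDA list cannot be told apart from a list of lower power.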
